A study of Mus musculus with 6 samples.

Results

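The amino acid transporters described here are the mouse genes of the solute carrier families Slc1a, Slc3a, Slc7a and Slc38a. They were found as probe sets, the groups of short probes that measure a transcript on an Affymetrix array, with a single gene symbol made of one of those family names and a number. This gave 33 genes with 77 probe sets, of 18193 genes and 45037 probe sets tested. The brightest probe set, with the highest mean over the 6 arrays, stood for its gene. A further gene, Slc7a6os, meets the wording of the rule but is a neighbour of Slc7a6 by name and not a transporter, so it was set apart and its values are given at the end.

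The study profiled mouse embryonic stem (ES) cells with a human GTF2I coding sequence at the Rosa26 locus, behind a promoter that tetracycline holds off. Both groups came from clones A1, B3 and C6 of this line. The induced group was 1 array per clone after 24 h without tetracycline, and the uninduced group was 1 array per clone grown with tetracycline (0 h). All cells thus carried the transgene, and each array was 1 culture of 1 clone. The removal of tetracycline cannot be told apart from the induction of the transgene. The titles, which were followed here, name the transgene GTF2I, although the genotype entry under the characteristics gives GTF2IRD2. The comparison asks which mouse genes respond when the gene of the human factor TFII-I is induced. That gene lies in the chromosome segment of which 1 copy is missing in Williams-Beuren syndrome.

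Cells take up amino acids through carriers of different kinds. Members of the Slc7a family that exchange one amino acid for another are light chains, which reach the cell surface bound to a heavy chain, Slc3a2 (CD98) or Slc3a1. Slc7a1 to Slc7a3 carry arginine and lysine on their own, Slc1a members bring in glutamate or small neutral amino acids with sodium, and Slc38a members move glutamine, alanine and other neutral amino acids at the surface or at the lysosome. In proliferating cells, leucine imported by Slc7a5 with Slc3a2 feeds the growth-controlling kinase complex mTORC1, and a shortage of amino acids raises several carriers through the transcription factor ATF4.

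The values are log2 summaries made by robust multiarray averaging (RMA), so that a difference of 1 is a doubling, and levels of different probe sets cannot be ranked against each other. Array medians lay between 5.06 and 5.11. The 8 ES cell markers all had a mean of at least 6, between 10.90 and 14.20, and their summed level was 15.69 to 15.83 on induced and 15.75 to 15.78 on uninduced arrays. Single ES cell markers moved with the clones, and in 5 of the 8 the change in A1 was opposite to those in B3 and C6. Such opposition was not particular to these markers, since 60.3% of all probe sets averaging 6 or more showed it. Esrrb differed between induced and uninduced arrays by 0.51, -0.36 and -0.65 in A1, B3 and C6, Utf1 by 0.38, -0.31 and -0.40, and Pou5f1 by 0.18, -0.39 and -0.18. These 3 were higher in induced A1, and the other 2 of the 5, Sox2 and Dppa5a, were lower. Sox2 differed by -0.086, 0.056 and 0.02 in A1, B3 and C6, and Dppa5a by -0.085, 0.097 and 0.121. Nanog, Zfp42 and Tdgf1 were not among the 5. Of 10 fibroblast or feeder markers 1 had a mean of at least 6, and their summed level was 7.99 to 8.41 on induced and 8.10 to 8.23 on uninduced arrays. The part of ES cell state or of feeder cells in the results was not tested, and in RNA from whole cultures fewer cells of a type and less RNA per cell cannot be told apart.

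Of the 33 genes, 16 had a mean of at least 6 and 17 were dimmer. Slc3a1, Slc7a2, Slc7a8, Slc7a11, Slc7a12 and Slc7a14 were dimmest, these 6 having means below 3.66, the lowest of the lower quartiles of the arrays. Slc7a11, the cystine and glutamate exchanger, lay between 3.08 and 3.25 on induced and between 3.02 and 3.19 on uninduced arrays. A change in genes this close to the bottom of the scale could have gone undetected.

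No transporter passed the test between induced and uninduced arrays. Of the 33 genes, 15 were higher and 18 lower on induced arrays, with a median difference of -0.01, beside 0.00 over all probe sets. The number past an adjusted p of 0.05 was 0 (limma, Benjamini-Hochberg over all probe sets), and 0 had an unadjusted p below that value. This fit held no term for the clone, so differences in level between clones count as spread in its p-values and intervals. Over all probe sets the share called was 0% too, with 436 at an unadjusted p under 0.05. The 3 induced arrays lay entirely above or below the 3 uninduced arrays in 0 of the 33 genes, against 4.55% of all probe sets. Among the 16 brighter genes the differences ran from -0.38 to 0.26, and the 95% intervals reached a median of 0.40 to either side, under 0.5 in 11 genes and at most 0.66, in Slc7a5.

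The direction of change in single transporters differed between the clones, although no transporter passed the test of that difference given further on. Of the 16 brighter genes, 13 moved one way in A1 and the other way in both B3 and C6, against 60.3% of all probe sets this bright, so that such opposition was common on these arrays. Over all 33 genes it was 16, against 41.6% of all probe sets. Slc3a2, Slc7a5, Slc7a7, Slc7a3, Slc1a4, Slc1a5 and Slc38a7 were the 7 brighter genes higher in induced A1 and lower in induced B3 and C6. Slc7a6, Slc7a1, Slc7a4, Slc38a1, Slc38a2 and Slc38a10 were the 6 that ran the other way. Both directions held light chains, cationic carriers and Slc38a genes. These directions are those of the brightest probe set. Slc1a4, Slc7a6, Slc38a1, Slc38a2 and Slc38a10 each had another bright probe set that differed. There the change in A1 lay on the other side of the mean change in B3 and C6, as given further on.

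**Figure D1:**
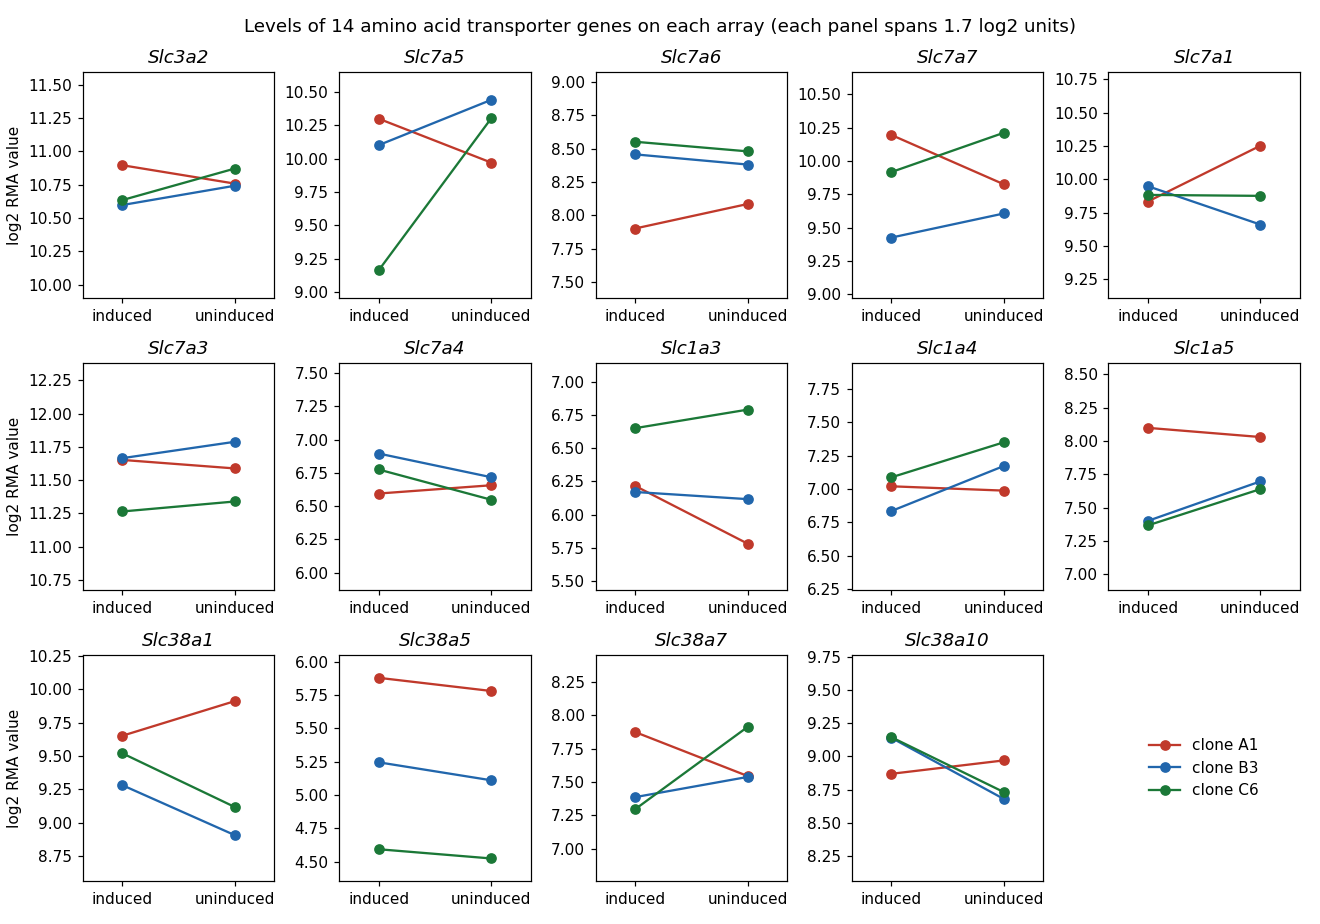
Log2 RMA values of 14 transporter genes, with induced arrays at the left and uninduced arrays at the right of each panel and with both arrays of each clone joined. In Slc7a5 the line of A1 crosses those of B3 and C6, which lie lower when induced, while in Slc38a5 the clones stay apart in both states.

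The leucine carrier Slc7a5 moved the most within a clone among the 33 genes. On induced arrays it read 10.30, 10.10 and 9.16 in A1, B3 and C6, against 9.97, 10.44 and 10.30 on uninduced arrays of the same clones. Induced A1 was the highest of its group, induced C6 was the lowest array of all, and the groups overlapped. The means were 9.85 ± 0.61 on induced and 10.24 ± 0.24 on uninduced arrays (SD, n = 3 each), a difference of -0.38 ± 0.28 (SE; 95% interval -1.04 to 0.27; limma adjusted p = 1.00). Within A1, B3 and C6 the difference was 0.33, -0.34 and -1.14. Without the induced array of C6 the mean difference was -0.04.

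Its partner, the CD98 heavy chain Slc3a2, moved in the same directions over a smaller range. It read 10.90, 10.60 and 10.63 in A1, B3 and C6 on induced arrays, against 10.76, 10.74 and 10.87 on uninduced arrays. The groups overlapped, and the within-clone differences were 0.14, -0.14 and -0.24 in A1, B3 and C6. The mean difference was -0.08 ± 0.11 (SE; limma adjusted p = 1.00). Slc3a1, the heavy chain known from kidney and gut, differed by -0.05, -0.36 and 0.27 in the same order, at a mean level of 3.63.

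Among the other light chains, Slc7a7, which exchanges cationic for neutral amino acids, read 10.20 in A1, 9.43 in B3 and 9.92 in C6 on induced arrays, against 9.82, 9.61 and 10.21 on uninduced arrays. A1 was higher when induced by 0.37, and B3 and C6 were lower by -0.18 and -0.30. B3 was the lowest clone in both states. Slc7a6, which has a similar exchange activity, read 7.90, 8.46 and 8.55 in A1, B3 and C6 on induced arrays, against 8.09, 8.38 and 8.48 on uninduced arrays. The order of the clones, with A1 below the others, was the same in both states and the within-clone differences were at most 0.18 in size.

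The remaining light chains were all dim. Slc7a9, the cystine carrier that pairs with Slc3a1, moved by 0.15, -0.23 and -0.45 in A1, B3 and C6, and Slc7a13, an acidic amino acid carrier, by 0.00, -0.52 and -0.21. Slc7a8, a neutral amino acid exchanger, Slc7a10, which carries small neutral amino acids, Slc7a11, Slc7a12 and Slc7a15 had mean differences between -0.08 and 0.07. Over the 10 light chains 3 were higher and 7 lower on induced arrays, and 0 passed the test.

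Of the cationic carriers, Slc7a1, the main arginine carrier of many cell types, read 9.83 in A1, 9.95 in B3 and 9.88 in C6 on induced arrays, against 10.25, 9.66 and 9.88 on uninduced arrays. The induced arrays lay within the range of the uninduced ones, since uninduced A1 was the highest and uninduced B3 the lowest array. Induction changed it by -0.42, 0.29 and 0.01 in the same order. Slc7a3, a second arginine carrier, read 11.65, 11.66 and 11.26 in A1, B3 and C6 on induced arrays, against 11.59, 11.79 and 11.34 on uninduced arrays. C6 was the lowest clone in both states, and the within-clone differences of 0.06, -0.12 and -0.08 were small beside that spacing.

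Slc7a4, a relative of the arginine carriers, read 6.59 in A1, 6.89 in B3 and 6.78 in C6 on induced arrays, against 6.66, 6.72 and 6.55 on uninduced arrays. The groups overlapped, with differences of -0.06, 0.18 and 0.23. Slc7a2, the carrier known from liver and macrophages, and Slc7a14 lay close to the bottom of the scale and differed by 0.09 and 0.02. In this group 3 of 5 genes were higher on induced arrays and 0 passed the test.

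In the Slc1a family, the neutral amino acid carriers Slc1a4 and Slc1a5 moved alike in their brightest probe sets. Slc1a5, which imports glutamine, read 8.10 in A1, 7.40 in B3 and 7.37 in C6 on induced arrays, against 8.03, 7.70 and 7.64 on uninduced arrays. A1 stood above the other clones in both states, and the differences were 0.07, -0.30 and -0.27. Slc1a4, which carries serine, alanine and cysteine, read 7.02, 6.84 and 7.09 in A1, B3 and C6 on induced arrays, against 6.99, 7.17 and 7.35 on uninduced arrays. Its differences were 0.03, -0.34 and -0.26, and the groups overlapped.

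The glutamate carriers of the family were dim or near the level of 6. Slc1a3, the glial glutamate carrier, read 6.22 in A1, 6.17 in B3 and 6.65 in C6 on induced arrays, against 5.78, 6.12 and 6.79 on uninduced arrays. C6 was the highest clone in both states, and uninduced A1 was the lowest array. Slc1a1, the widely expressed glutamate carrier, had differences of 0.12, -0.66 and -0.27 in A1, B3 and C6. Slc1a2, Slc1a6 and Slc1a7, known from brain and retina, had mean differences between -0.01 and 0.08.

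The Slc38a family held members of both directions. Slc38a1, a sodium-coupled glutamine carrier, read 9.65 in A1, 9.28 in B3 and 9.52 in C6 on induced arrays, against 9.91, 8.91 and 9.12 on uninduced arrays. A1 was the highest clone in each state, and the 3 clones lay closer together when induced. Its differences were -0.26, 0.38 and 0.40. Slc38a10 read 8.87 in A1, 9.14 in B3 and 9.14 in C6 on induced arrays, against 8.97, 8.68 and 8.73 on uninduced arrays, with differences of -0.10, 0.46 and 0.41.

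Slc38a7, which releases glutamine and asparagine from lysosomes, ran the other way. It read 7.88 in A1, 7.39 in B3 and 7.30 in C6 on induced arrays, against 7.55, 7.54 and 7.91 on uninduced arrays. C6 was the highest uninduced array and the lowest induced one, and the differences were 0.33, -0.15 and -0.62. Slc38a2, the carrier that many cells raise when amino acids are short, moved little, with differences of -0.02, 0.15 and 0.17. Slc38a4 differed by -0.01, -0.12 and 0.19, Slc38a3 by 0.04, -0.19 and 0.03, and Slc38a9, the lysosomal arginine sensor of mTORC1, by 0.04, -0.23 and 0.09 in A1, B3 and C6. Slc38a5 and Slc38a6 were among 4 genes, with Slc1a6 and Slc7a8, that were higher on the induced array in all 3 clones, by at most 0.21.

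**Figure D2:**
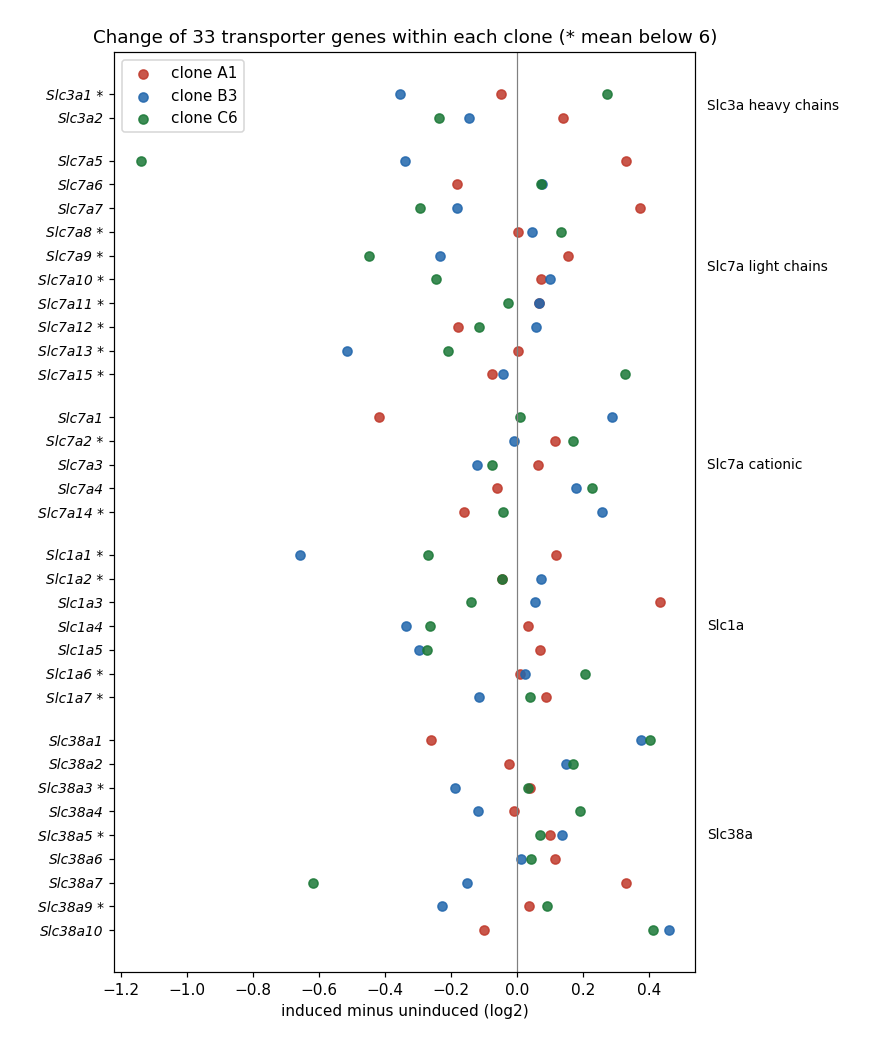
Induced minus uninduced difference on the log2 scale for each of the 33 genes in clones A1, B3 and C6, ordered by family, with an asterisk where the mean lay below 6. Slc7a5 spans the widest range, with 0.33 in A1 and -1.14 in C6.

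The opposition was tested by setting the difference of A1 against the mean of the differences of B3 and C6 with limma. A1 gave 1 difference per gene, so its change has no replicate of its own. The spread within a gene came from B3 and C6, and limma drew it towards the spread common to all probe sets. The SE given is therefore not that of B3 and C6 alone. The number of transporters past the threshold was 0 of 33, against 2.71% of all probe sets. The gap for Slc7a5 was 1.07 ± 0.29 (SE; limma adjusted p = 0.0934), and for Slc3a2 it was 0.33 ± 0.18 (limma adjusted p = 0.422). For Slc38a7 it was 0.72 ± 0.23 (limma adjusted p = 0.140) and for Slc7a7 0.61 ± 0.19 (limma adjusted p = 0.127). Slc38a1 and Slc38a10 had gaps of -0.65 ± 0.18 (limma adjusted p = 0.101) and -0.54 ± 0.18 (limma adjusted p = 0.171). With the test limited to probe sets of a mean of at least 6, which are fewer, Slc38a1 and Slc7a7 passed it (limma adjusted p = 0.0362 and 0.0463). These were 2 of 16 transporters, against 13.7% of all probe sets this bright, a share near the background.

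**Figure D3:**
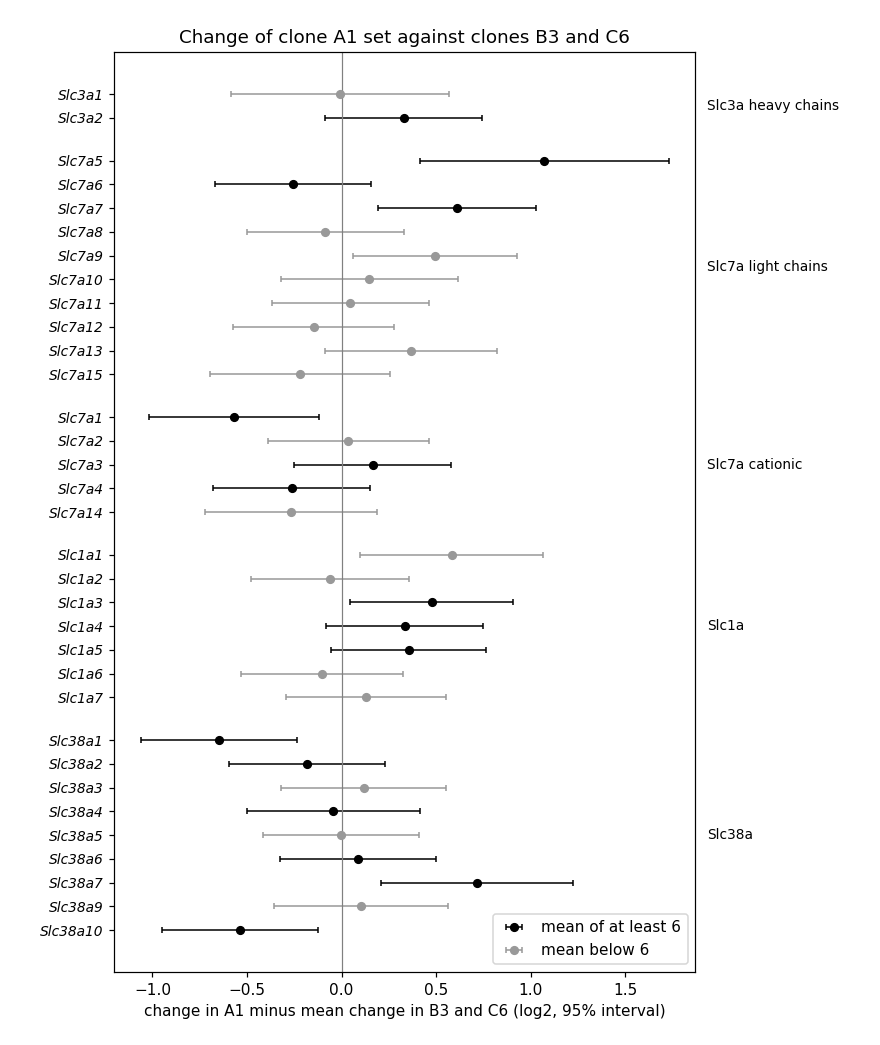
Change in A1 minus the mean change in B3 and C6 on the log2 scale, with 95% intervals, for the 33 genes. The intervals are unadjusted and leave out 0 in some genes, among them Slc7a5 at 1.07 and Slc38a1 at -0.65. None of the genes passed the adjustment over all probe sets.

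Without A1, the change in B3 and C6 was fitted with the clone as a replicate block. Again 0 of 33 transporters passed, against 2.18% of all probe sets. Slc7a5 was lower by -0.74 ± 0.17 (SE; limma adjusted p = 0.0594). When dim probe sets were left out as well, which was added once the values had been seen, Slc7a5 fell by 0.74 (limma adjusted p = 0.0399), Slc38a10 rose by 0.44 (limma adjusted p = 0.0295) and Slc38a1 rose by 0.39 (limma adjusted p = 0.0388). These were 3 of 16 transporters, against 10.8% of all probe sets this bright, and each call rests on 2 clones.

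Other probe sets of the same genes matched some of these values and not others. Of 33 genes, 20 had more than 1 probe set and 13 had a single one, among them Slc7a5, Slc3a2, Slc7a3, Slc38a5 and Slc38a7, which therefore had no second reading. Of the 44 other probe sets, 20 differed between induced and uninduced arrays in the direction of the brightest, and 14 shared the direction of its gap. Among the 13 others with a mean of at least 6, 4 shared each direction. The closest match was in Slc7a7, with a gap of 0.61 in the brightest probe set and 0.58 in the second. Slc7a1 had gaps of -0.57 and -0.44 in its bright probe sets and 0.29 in a further, dim one, and the mean differences of the bright ones, -0.04 and 0.01, differed in sign.

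Slc38a10 was the plainest disagreement. Its brightest probe set was higher in induced B3 and C6, while the 4 others with a mean of at least 6 were lower in both and higher in induced A1. The probe set next in brightness, whose mean of 8.92 was the same to 2 decimals, moved by 0.32, -0.24 and -0.80 in A1, B3 and C6. A gap of -0.54 in the brightest thus stood beside gaps between 0.29 and 0.94 in the 4 others with a mean of at least 6. The dim probe sets had gaps of -0.41, in the direction of the brightest, and 0.30. The probe sets were not placed on transcripts here, and whether they read different isoforms was not tested.

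**Figure D4:**
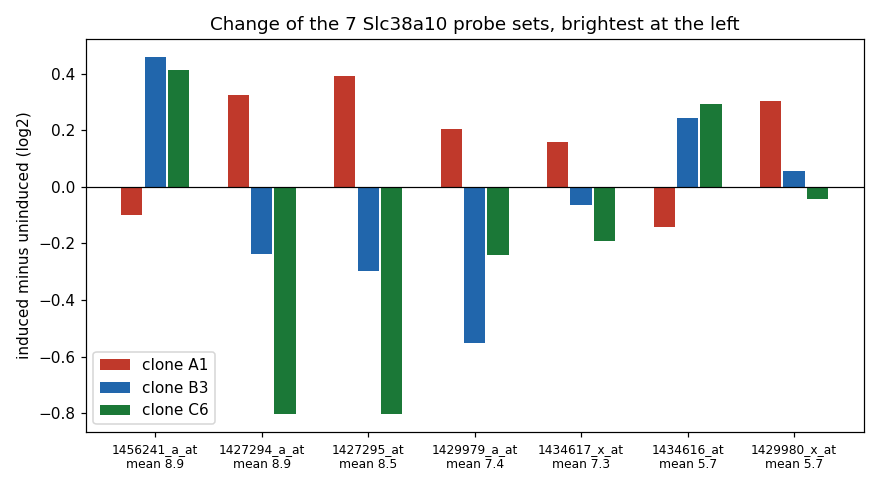
Induced minus uninduced difference on the log2 scale in clones A1, B3 and C6 for the 7 probe sets of Slc38a10, ordered by mean level. The brightest has bars of -0.10, 0.46 and 0.41, and the next 4 have the opposite signs.

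Slc38a1, Slc38a2, Slc1a3, Slc1a4 and Slc7a6 also had a bright second probe set whose gap had the other sign. The second probe set of Slc38a1 moved by -0.05, -0.02 and -0.09 in A1, B3 and C6 and had a gap of 0.01, beside -0.65 in the brightest. For Slc38a2 the second probe set moved by 0.02, -0.35 and -0.07 in A1, B3 and C6 and had a gap of 0.23, beside -0.18 in the brightest. In Slc1a4 the second probe set had a gap of -0.66 and the other 0.29, beside 0.33 in the brightest. Slc38a4 kept its direction but not its size, with a gap of -0.90 in the second probe set and -0.04 in the brightest. A direction given above for these genes holds for the brightest probe set only.

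Between clones, 1 transporter differed in level over both states. Slc38a5, a glutamine and histidine carrier, read 5.88 in A1, 5.25 in B3 and 4.59 in C6 on induced arrays, against 5.78, 5.11 and 4.52 on uninduced arrays. The clones kept this order in both states and their ranges did not overlap. A1 was higher than the mean of B3 and C6 by 0.96 ± 0.10 (SE; limma adjusted p = 0.0124), and C6 was lower than the mean of A1 and B3 by -0.95 ± 0.10 (limma adjusted p = 0.0278). Its mean of 5.19 is dim, and leaving out any 1 array of B3 or C6 ended both calls, with adjusted p between 0.0556 and 0.128 for A1 and between 0.283 and 0.523 for C6 (limma).

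This made 1 transporter called in A1, 0 in B3 and 1 in C6, against 1.07%, 0.646% and 0.255% of all probe sets. Slc38a6 had the same order of clones, at 7.17, 6.82 and 6.45 in A1, B3 and C6 on induced arrays, against 7.06, 6.81 and 6.41 on uninduced arrays. It did not pass the test (A1 higher by 0.50 ± 0.10; limma adjusted p = 0.0843). The ranges of all 3 clones were apart in 8 of 33 genes, against 13.4% of all probe sets: Slc38a4, Slc38a5, Slc38a6, Slc38a9, Slc1a6, Slc7a3, Slc7a6 and Slc7a11. All 6 values of Slc7a11 lay between 3.02 and 3.25, at the bottom of the scale.

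**Figure D5:**
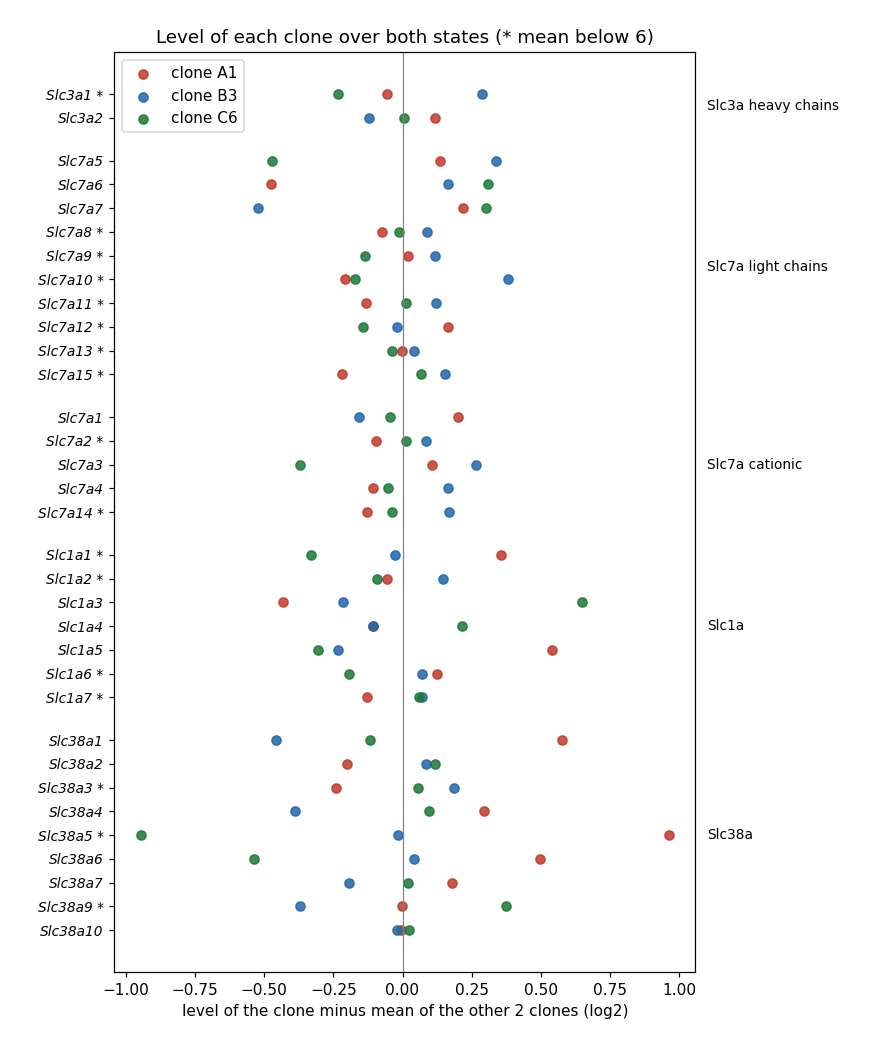
Level of each clone minus the mean of the other 2 clones, over both states and on the log2 scale, for the 33 genes. Slc38a5 lies farthest out, at 0.96 in A1 and -0.95 in C6.

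Promoter sequence was looked at for the elements known to bind ATF4 with its partners and the E-box factors. RefSeq promoters (GRCm38.p6), from 250 bases before to 50 bases after each start, were given for 24 of the 33 genes, as 34 promoters. The other 9, Slc7a5, Slc1a5, Slc38a1, Slc38a3, Slc7a2, Slc7a3, Slc7a4, Slc7a12 and Slc7a13, had no promoter given and were not searched. TGATGNAAN, the letters of the amino acid response element, on either strand, occurred in 4 of the 34 promoters, of 3 genes, and in 3.95% of all 32851 promoters. The letters CACGTG of the E-box, which read the same on both strands, occurred in 5 of the 34 promoters and in 7.15% of all promoters. No window shown held both motifs. A match describes the letters and is not a shown binding site. The windows below are shown because they carry these matches next to the start of genes described above, read 5′ to 3′ on the strand of the gene, with the motif in capitals.
Slc1a4, chr11:20332699-20332728, minus strand: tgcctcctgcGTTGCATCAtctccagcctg
Slc7a7, chr14:54418066-54418095, minus strand: cgcttgggctTGATGAAAGgttcactgggc
Slc7a7, chr14:54417926-54417955, minus strand: acctagaagcTGATGCAACagcttccccga
Slc7a11, chr3:50443651-50443680, minus strand: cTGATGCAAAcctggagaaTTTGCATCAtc
Slc38a5, chrX:8271339-8271368, plus strand: gcagacaggtgaCACGTGtccctgttaaga
Slc38a7, chr8:95853508-95853537, minus strand: gtgattcaggctCACGTGttacttgagtcg

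The window of Slc7a11 holds the element on both strands, 66 and 48 bases before the start, and that gene was at the bottom of the scale on all 6 arrays. In Slc7a7 the matches begin 141 bases and 1 base before the start of 1 promoter, so that the last runs across the start. That last match is shared by a second, overlapping promoter. Slc38a5, the gene whose level differed between clones, holds CACGTG 30 bases before its start, and Slc38a7 holds it 34 bases before.

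Genes around the transporters were read from 4 lists. Of the other amino acid transporter families, 32 of 33 were measured, with 16 higher and 16 lower on induced arrays. Of the genes by which mTORC1 senses amino acids, 32 of 34 were measured, with 18 higher and 14 lower. Of the regulators and targets of the amino acid response, 26 of 27 were measured, with 3 higher and 23 lower. Their median was -0.10, beside 0.00 over all probe sets, of which 49.7% were lower. In 12 of these 26 genes A1 moved against both other clones, and 6 moved the same way in all 3. Over all probe sets A1 moved so in 41.6%, and in 60.3% of those with a mean of at least 6. Of the glutamine and glutathione enzymes, 14 of 19 were measured, with 4 higher and 10 lower. In each list 0 genes passed the test between induced and uninduced arrays, and 0 had an unadjusted p under 0.05 (limma). In B3 and C6 with the clone as a block, 5 of the 104 list genes were called, or 4.81%, against 2.18% of all probe sets. Most genes of each list had a mean of at least 6, so these shares cover genes of unlike brightness. In the fit limited to probe sets this bright, 10.8% were called. The 5 genes, Slc6a8, Sesn2, Depdc5, Tsc2 and Atf5, were lower on induced arrays, by -0.67, -0.52, -0.54, -0.56 and -0.73. In level, 2 of the 104 list genes were called in A1, 1 in B3 and 0 in C6. Over all probe sets the shares called were 1.07%, 0.646% and 0.255%. Rragd was lower in A1 than in the other clones by -1.04 (limma adjusted p = 0.0353). Cth was higher in A1 by 0.83 (limma adjusted p = 0.0229) and Chac1 was lower in B3 by -0.90 (limma adjusted p = 0.0492).

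The gap between A1 and the other clones was called in 4 of the 104 genes measured on these lists, or 3.85%, near the 2.71% of all probe sets. These shares, too, cover genes of unlike brightness. In each of the 4 genes the change in A1 was the higher one. Slc6a8, the creatine carrier, differed by 0.59, -0.59 and -0.75 in A1, B3 and C6, with a gap of 1.27 ± 0.19 (SE; limma adjusted p = 0.0138). Sesn2, the leucine sensor that holds mTORC1 back, differed by 0.58, -0.47 and -0.57, with a gap of 1.10 ± 0.18 (limma adjusted p = 0.0201). For Tsc2, a further brake on mTORC1, the differences were 0.49, -0.42 and -0.70 and the gap 1.05 ± 0.20 (limma adjusted p = 0.0307). Atf5, a transcription factor of the amino acid response, had differences of 0.43, -0.53 and -0.93 and a gap of 1.16 ± 0.22 (limma adjusted p = 0.0284). These moved in the direction of Slc7a5.

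Other named genes of the lists did not pass this test. Depdc5, part of the complex that signals low amino acids to mTORC1, had a gap of 0.89 (limma adjusted p = 0.0522), and Lamtor3, a lysosomal anchor of the pathway, had -0.57. The kinase Eif2ak1 and the Gcn2 activator Gcn1 had gaps of 0.82 and 0.68, and Trib3, a target of ATF4, had -0.61. The taurine carrier Slc6a6 had -0.70, while the mitochondrial glutamate carrier Slc25a22 and the lysosomal histidine and peptide carrier Slc15a4 each had 0.51. Among enzymes, Got2, Gsr and Cbs had gaps of 0.49, 0.56 and 0.55, and Gfpt1 had -0.63.

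Slc7a6os, set apart above, read 7.81 in A1, 6.96 in B3 and 7.10 in C6 on induced arrays, against 7.10, 7.73 and 7.81 on uninduced arrays in its brightest probe set. Every clone moved by at least 0.71, upward in A1 and downward in B3 and C6. The gap was 1.45 ± 0.18 (SE; limma adjusted p = 0.00776). Its second, dim probe set differed by -0.35, -0.33 and -0.04 and had a gap of -0.17 (limma adjusted p = 0.749). Slc7a6 differed by -0.18, 0.08 and 0.07 in its brightest probe set and by 0.14, -0.23 and -0.32 in its second, and only the second moved in the directions of Slc7a6os.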

How the data were processed

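Total RNA of 6 cultures was hybridized to Affymetrix whole-genome mouse arrays. The deposited values are on the log2 scale, 1 per probe set and array, and came from the authors' RMA step (background correction, quantile normalization and summary), which the submitters' processing notes credit to affy. Versions and the probe definition are not given in the sources used here. The log2 values were used as deposited. Of 45101 probe sets, 64 controls were left out. Of the 45037 tested, 34945 had 1 symbol in the platform annotation, 932 several and 9160 none listed here, and only those with 1 symbol were used to name genes.

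All tests used limma 3.58.1 in R 4.3.3 (two-sided, by lmFit and eBayes), p-values being adjusted by Benjamini-Hochberg over all probe sets with a threshold of 0.05, in place of the t-test the methods name, which was run as an alternative. Models compared induced with uninduced arrays, the within-clone difference of each clone with those of the others, and clone levels with induction state as a term. Scripts were tested on simulated data. The number of arrays limits the precision. The same 3 clones stand in both groups and so pair the arrays; deviations from the group means correlated at r = 0.19 in A1, 0.53 in B3 and 0.31 in C6. No array duplicated another (correlations of 0.991 to 0.996). The labels call the arrays biological replicates, 1 per clone.

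Members, gene lists and the naming rule were chosen with earlier results of these data known. The rule gave values on every array for Slc7a5, Slc3a2, called genes and, per family group, up to 3 genes with a mean of at least 6 and the largest within-clone difference, and named up to 4 genes per list by smallest p. Slc38a6, Slc7a6os, Rragd, Cth and Chac1 were added after their values were seen. Alternatives covered the block, test, variance model, array weights, normalization, filter, probe set choice, and leaving out arrays or clones. Gene coordinates were not used in the comparisons of the arrays, for which no genome build is named. Only the promoter windows are given with coordinates, on GRCm38.p6.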

Additional observations from a re-analysis of the deposited data

Results flagged for a closer look

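For 5 genes the change on induction differed between clones when the difference itself was tested, A1 against the mean of B3 and C6 (limma). The gap was 1.45 for Slc7a6os, 1.27 for Slc6a8, 1.10 for Sesn2, 1.05 for Tsc2 and 1.16 for Atf5, with adjusted p of 0.00776, 0.0138, 0.0201, 0.0307 and 0.0284 over all probe sets. Over all probe sets 2.71% passed this test, and 3.85% of the 104 list genes did. Most list genes had a mean of at least 6, so these shares cover genes of unlike brightness. In the fit limited to probe sets this bright, 13.7% passed. Each of the 5 genes was higher on the induced array in A1 and lower on it in B3 and C6. None of the 33 transporters was among them. Each clone gave 1 difference, so the test rests on 3 values per gene and the change in A1 has no replicate. The spread was drawn by limma towards that of all probe sets.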

How the results depend on the processing

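The count of transporters called between induced and uninduced arrays was 0 under every alternative, the replicate block included (0 called, paired by clone), except that 3 were called without A1, with the block and with a mean of at least 6. Their median difference was 0.035 without clone B3 and ran from -0.037 to 0.023 with single arrays left out. The gap of A1 gave 2 calls with a mean of at least 6. Alternatives for single genes were run for the 14 genes given on every array. With the second brightest probe set the gap changed sign in Slc1a3 (-0.35), Slc1a4 (-0.66), Slc38a10 (0.84), Slc38a1 (0.0054) and Slc7a6 (0.42), and, outside those 14, in Slc1a1 (-0.05), as did the level of A1 in Slc1a5 (-0.16). The level of A1 gave 0 calls with a mean of at least 6, 0 with the second brightest probe set, both by construction since Slc38a5 is dimmer and has 1 probe set, 2 without induction state and 0 to 5 with single arrays left out. Without uninduced A1 these 5 were Slc38a5, Slc38a6, Slc1a1, Slc1a5 and Slc7a6, and without induced A1 they were 3, Slc38a5, Slc38a1 and Slc1a3. The level of B3 gave 1 call with the second brightest probe set (Slc38a9) and 0 to 1 with single arrays left out, Slc7a7 without uninduced A1 and Slc38a1 without induced A1. For C6 it gave 0 under the filter on dim probe sets and 0 with the second brightest probe set, for the reason given for A1, and 0 to 4 with single arrays left out, being 4 without uninduced A1 and 3 without induced A1. The probe set agreement in direction was 45.5%, and 30.8% with a mean of at least 6. A gene was counted as changing sign only where either value was past the threshold or had an unadjusted p under 0.05. The gap could not be tested without a whole clone, which leaves no residual degrees of freedom. The cause of these changes was not tested beyond what each setting itself removes.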
